A study of Canis lupus familiaris with 222 samples.

Results

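ENSCAFG00000028626 and ENSCAFG00000023647 are 2 of the 24580 Ensembl gene identifiers measured by RNA-seq in canine mammary tumors (CMTs) and in adjacent normal mammary tissue. They were chosen from the contrast of NMF3 CMTs against NMF1 and NMF2 CMTs, where NMF1 to NMF5 are the expression clusters that the study obtained by non-negative matrix factorization. Among identifiers that passed that contrast and averaged 5 FPKM or more in NMF1 and NMF2 CMTs, ENSCAFG00000028626 had the lowest log2 difference, at -3.93, and ENSCAFG00000023647 the next, at -3.60. The next identifier, which was not chosen, stood at -3.48. FPKM corrects the fragments of a gene for its transcript length and for the depth of the library, so levels of the 2 genes are compared here per length. The working description of both genes as lost in NMF3 CMTs held for only some of the 18 NMF3 CMTs. Gene names for the identifiers were not available in the tables used here, so nothing can be said about what the 2 genes do, their sequences could not be shown, and the labelled tissues could not be checked against marker genes.

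The table holds 158 CMTs and 64 adjacent normal tissues of dogs that also gave a CMT, all from fresh surgical tissue with poly(A) libraries. The CMT without a cluster (CMT-351) was left out here. All dogs were female. Ages were given for 150 dogs and ran from 2 to 19 years, with a median of 12, and 105 dogs were intact, 49 neutered and 3 without an entry. By diagnosis there were 59 simple carcinomas, 33 complex carcinomas, 13 carcinomas in benign mixed tumor, 18 simple adenomas, 16 complex adenomas, 10 benign mixed tumors and 8 other malignant tumors (3 osteosarcomas, 3 carcinosarcomas, 1 fibrosarcoma and 1 spindle cell carcinoma). The label of the spindle cell carcinoma also names it a malignant myoepithelioma. The clusters held 92 NMF1, 35 NMF2, 18 NMF3, 7 NMF4 and 5 NMF5 CMTs. The study described the expression signatures of NMF1 to NMF3 as relatively specific to CMTs. It described those of NMF4 and NMF5 as specific to normal tissue, so NMF4 and NMF5 CMTs are tumors assigned to normal-tissue signatures. Mapped reads ran from 52007828 to 147634076 per CMT and from 52428301 to 109525495 per normal tissue, and the number of reads per gene is unknown. The CMTs were operated on in 2016 (42), 2017 (98) and 2018 (17).

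As background, the mammary gland is lined by an inner layer of luminal epithelial cells and an outer layer of contractile myoepithelial cells, set in a stroma of fibroblasts, fat and vessels. Simple CMTs are made of luminal epithelial cells, complex CMTs also hold proliferating myoepithelial cells, mixed tumors add cartilage or bone, and sarcomas consist of mesenchymal cells. A bulk library mixes all of these, so fewer cells of a type and less RNA per cell cannot be told apart in any value given here.

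Both genes were abundant in most CMTs. ENSCAFG00000028626 had a median of 4284 FPKM in CMTs, from a CMT in which it was listed at 0 to one at 34729.9 FPKM, and its median rank among all identifiers of a CMT was 16. It was among the 100 highest identifiers in 127 CMTs and in 30 of 64 normal tissues. ENSCAFG00000023647 had a median of 1147 FPKM in CMTs, from 0.860 to 4808 FPKM, with a median rank of 93, and was among the 100 highest in 92 CMTs and 15 normal tissues. In normal tissue the medians were 1150 FPKM (from 8.97 to 18924.6) for ENSCAFG00000028626 and 591 FPKM (from 0.784 to 3957) for ENSCAFG00000023647. Each gene thus ranged over more than 3 orders of magnitude in both tissues, and the ranges of tumor and normal tissue overlapped. The plot of levels by cluster shows every library.

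**Figure D1:**
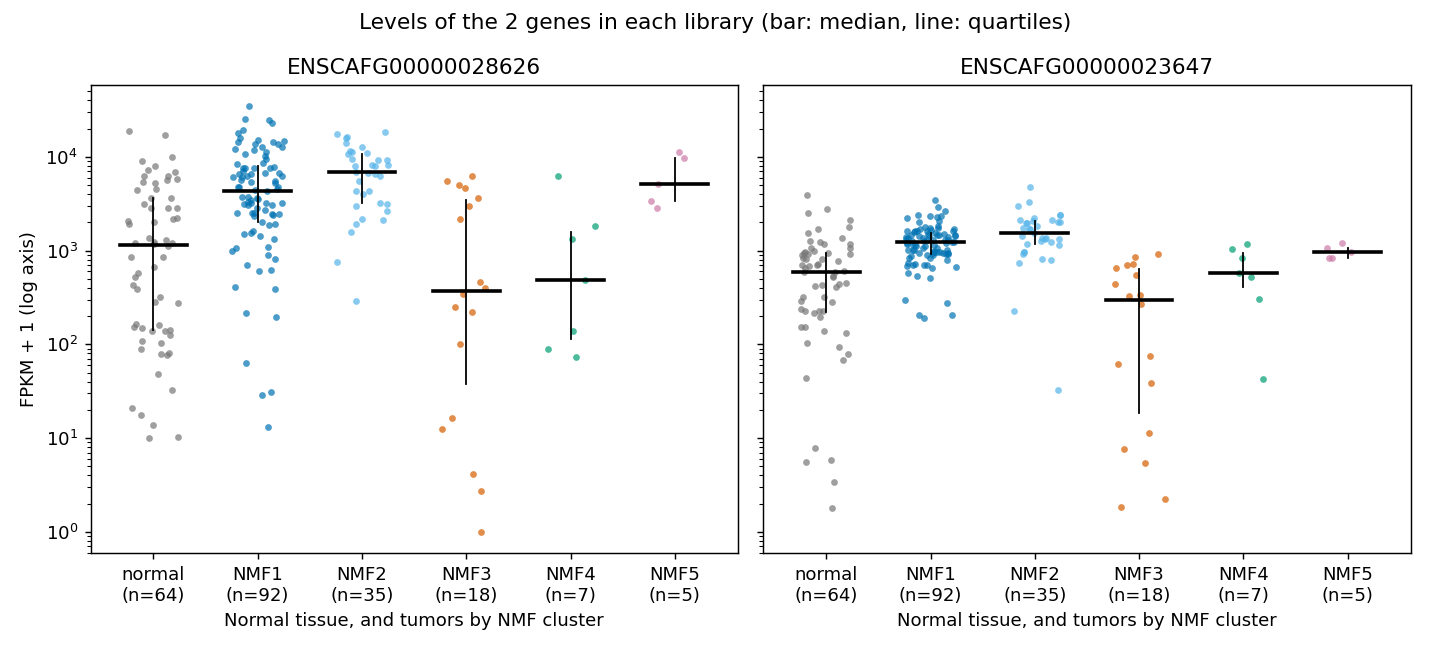
FPKM + 1 on a log axis for ENSCAFG00000028626 (left) and ENSCAFG00000023647 (right) in 64 normal tissues and in CMTs of 5 NMF clusters, 1 point a library, with bars for medians and thin lines for quartiles. NMF3 CMTs run from 0 to 6272 FPKM of the first gene, and normal tissue also reaches down to 8.97 FPKM.

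Ordered by the median level of ENSCAFG00000028626, the clusters were NMF2 (6956 FPKM, from 290 to 18269), NMF5 (5161, from 2845 to 11419), NMF1 (4373, from 12.1 to 34729.9), NMF4 (481, from 72.6 to 6294) and NMF3 (370, from 0 to 6272). The mean log2(FPKM + 1) was 12.45 ± 1.33 (SD, n = 35) in NMF2, 12.45 ± 0.89 (n = 5) in NMF5, 11.70 ± 2.12 (n = 92) in NMF1, 8.94 ± 2.46 (n = 7) in NMF4 and 7.97 ± 4.16 (n = 18) in NMF3. Neighbours in this order differed by less than their SD except NMF1 and NMF4. For ENSCAFG00000023647 the medians ran from NMF2 (1536 FPKM, from 31.3 to 4808) over NMF1 (1223, from 191 to 3432), NMF5 (976, from 827 to 1193) and NMF4 (574, from 41.6 to 1187) to NMF3 (298, from 0.860 to 927). Its mean log2 levels were 10.40 ± 1.21, 10.14 ± 0.78, 9.92 ± 0.23, 8.83 ± 1.65 and 6.61 ± 3.15 in that order. For this gene the neighbours NMF4 and NMF3 differed by more than the SD of NMF4 and by less than that of NMF3, and NMF5 and NMF4 by less than the SD of NMF4. These levels chose the genes and are given with no test.

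Within NMF3 the CMTs were far from uniform. Fewer than 10 FPKM of ENSCAFG00000023647 were listed in 4 NMF3 CMTs: the benign mixed tumor of CMT-695 (0.860 FPKM), the spindle cell carcinoma of CMT-129 (1.27), the osteosarcoma of CMT-009 (4.49) and the fibrosarcoma of CMT-112 (6.68). ENSCAFG00000028626 stood at 1.74, 343, 3.16 and 11.5 FPKM in the same 4 CMTs. The osteosarcoma of CMT-290 had 15.5 and 10.5 FPKM of ENSCAFG00000028626 and ENSCAFG00000023647. In the solid simple carcinoma of CMT-318 the first gene was listed at 0 and the second at 74.0 FPKM. Whether this 0 is a failed estimate or an absent transcript was not tested. Of 581 identifiers with a median of at least 100 FPKM, 22 were listed at 0 in at least 1 library.

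At the other end, 7 of 18 NMF3 CMTs held 1000 FPKM or more of ENSCAFG00000028626, against 78 of 92 in NMF1 and 33 of 35 in NMF2. They were the osteosarcoma of CMT-332 (6272 FPKM), the carcinosarcoma of CMT-231 (5582), the benign mixed tumor of CMT-102 (4981), the simple carcinoma of CMT-210 (4660), the complex adenoma of CMT-355 (3678), the complex carcinoma of CMT-301 (2973) and the simple carcinoma of CMT-306 (2183). These values lie inside the quartiles of NMF1, from 1996 to 7929 FPKM. The level of ENSCAFG00000023647 in the same 7 CMTs ran from 324 to 927 FPKM, and no NMF3 CMT reached 1000 FPKM of this gene.

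Levels under 0.1 times the median of the 139 CMTs outside NMF3, that is under 473 FPKM for ENSCAFG00000028626 and 124 FPKM for ENSCAFG00000023647, were counted. In NMF3, 11 CMTs were under this level for the first gene and 8 for the second, and all 8 were under it for both. Without CMT-318, where the first gene was listed at 0, the counts were 10, 7 and 7. Outside NMF3, 12 CMTs were under it for the first gene, 2 for the second and 2 for both. The 2 CMTs low in both were carcinomas in benign mixed tumor: CMT-063 of NMF2 (290 and 31.3 FPKM) and CMT-756 of NMF4 (72.6 and 41.6 FPKM). Some of the 12 kept a high level of the second gene: the solid simple carcinoma of CMT-496 had 12.1 FPKM of ENSCAFG00000028626 beside 1412 FPKM of ENSCAFG00000023647, and the tubulopapillary simple carcinoma of CMT-402 had 62.4 beside 2673 FPKM. Among normal tissues, 26 of 64 were under the level for the first gene and 10 for the second, all 10 for both. Low levels were thus also found outside NMF3. Below every normal tissue stood 3 CMTs for ENSCAFG00000028626 (CMT-318, CMT-695 and CMT-009, all NMF3), or 2 without CMT-318 and its value of 0, and 0 CMTs for ENSCAFG00000023647.

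Depth and mapping of the libraries were compared beside these levels. NMF3 libraries had 52007828 to 92801825 mapped reads and mapping rates of 89.3% to 93.2%, and CMTs outside NMF3 had 52159703 to 147634076 mapped reads and rates of 66.6% to 93.1%. The lowest mapping rates in NMF3 were those of CMT-695 (89.3%) and CMT-318 (89.95%), and their part in the low values was not tested.

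Of the 8 other malignant tumors, 7 were NMF3 CMTs. Among osteosarcomas, ENSCAFG00000028626 stood at 3.16, 15.5 and 6272 FPKM and ENSCAFG00000023647 at 4.49, 10.5 and 324 FPKM. The 3 carcinosarcomas, which contain both epithelial and mesenchymal malignant cells, had 396, 5582 and 16221 FPKM of the first gene and 337, 659 and 1731 FPKM of the second. The highest carcinosarcoma was that of CMT-577, the only other malignant tumor outside NMF3. The 3 carcinosarcomas were thus higher than each osteosarcoma for ENSCAFG00000023647, while the 2 diagnoses overlapped for ENSCAFG00000028626. ER and HER2 stains were not applicable for 5 CMTs, of which 4 were NMF3 tumors.

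Within NMF3, ENSCAFG00000023647 had a median of 10.5 FPKM (from 1.27 to 659) in the 7 rare histologies and of 436 FPKM (from 0.860 to 927) in the 11 CMTs of common histologies. The medians of ENSCAFG00000028626 were 343 FPKM (from 3.16 to 6272) and 457 FPKM (from 0 to 4981). The ranges overlapped for both genes. By class, the study's basal or non-basal assignment from expression, the 12 basal NMF3 CMTs had a median of 49.2 FPKM of ENSCAFG00000023647 (from 0.860 to 693) and the 6 non-basal ones 687 FPKM (from 436 to 927). For ENSCAFG00000028626 the medians were 173 FPKM (from 0 to 6272) and 3816 FPKM (from 222 to 5582). Outside NMF3, the 25 basal CMTs had medians of 4733 and 1167 FPKM and the 114 non-basal ones 4615 and 1250 FPKM of ENSCAFG00000028626 and ENSCAFG00000023647. The NMF3 values chose the genes and the class was made from these libraries, so these levels have no test.

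Tumor and normal tissue of the same dog were compared to ask whether the genes change in CMTs at large. Both genes were higher in CMTs. ENSCAFG00000028626 had a median of 3180 FPKM in the 64 CMTs and 1150 FPKM in their normal tissues, and was higher in the CMT of 41 of 64 dogs. The log2 difference was 1.75 ± 0.37 (SE, 95% interval 1.00 to 2.49), with an adjusted p of 6.99e-05 in limma with the dog as a block. ENSCAFG00000023647 had medians of 1018 and 591 FPKM, was higher in the CMT of 49 of 64 dogs, and differed by 1.34 ± 0.26 (SE, 95% interval 0.81 to 1.86, adjusted p = 1.89e-05, limma). A gene was called, here and in what follows, when its adjusted p was below 0.05 and its log2 difference 1 or more in either direction. Both genes were called, against 5.11% of 14707 identifiers, of which 233 were higher and 519 lower in CMTs. Of the 64 CMTs, 37 were NMF1, 14 NMF2 and 7 NMF3 CMTs, all of them part of the choosing contrast. The CMT side of this test is thus not independent of the choice of the genes. The plot of paired tissues shows that the size of the difference varied widely between dogs.

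**Figure D2:**
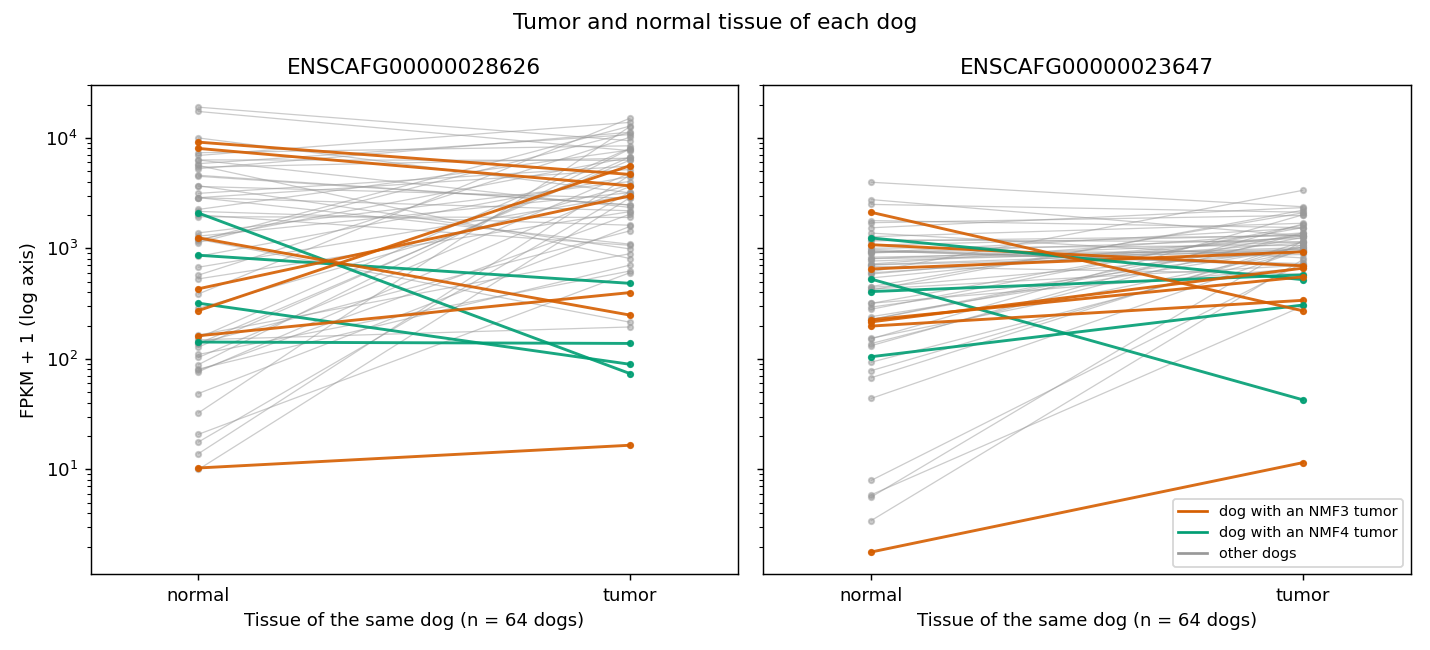
FPKM + 1 on a log axis in normal tissue and CMT of each of 64 dogs, 1 line a dog, for ENSCAFG00000028626 (left) and ENSCAFG00000023647 (right). Orange lines are the 7 dogs with an NMF3 CMT and green lines the 4 with an NMF4 CMT, and the first gene is higher in the CMT of 41 dogs and the second in that of 49.

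The within-dog log2 differences of ENSCAFG00000028626 ran from -4.82 in CMT-756 (2084 FPKM in normal tissue and 72.6 in the NMF4 CMT) to 8.60 in CMT-719, a dog whose normal tissue had 31.4 FPKM. Those of ENSCAFG00000023647 ran from -3.63, again in CMT-756 (525 and 41.6 FPKM), to 7.84 in CMT-278, whose normal tissue had 2.44 FPKM. Rises of 3 log2 units or more were found in 21 dogs for the first gene and 11 for the second, and falls of that size in 1 dog for each. Both genes were higher in the CMT of 37 dogs, both lower in 11, and they went opposite ways in 16. The median within-dog difference was 1.20 for ENSCAFG00000028626 and 0.76 for ENSCAFG00000023647, below the means of 1.75 and 1.34.

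Without the 7 dogs with an NMF3 CMT both genes were called at 1.88 and 1.44 in 57 dogs. NMF1 and NMF2 CMTs, the side of the choosing contrast with the higher levels, made up 51 of these 57, so the CMT side of this comparison is not independent of the choice. By surgery year, the differences of ENSCAFG00000028626 and ENSCAFG00000023647 were 1.15 and 0.67 in the 13 dogs of 2016, 1.84 and 1.50 in the 40 dogs of 2017, and 2.11 and 1.55 in the 11 dogs of 2018. Both genes passed the test in 2017 (adjusted p = 0.00073 and 0.000408, limma), and neither did in 2016 (0.395 and 0.447) or in 2018 (0.132 and 0.0624). By histology, the 20 dogs with a simple carcinoma had differences of 1.75 and 1.27 (adjusted p = 0.0186 and 0.0091, limma), and the 19 dogs with a complex carcinoma 1.70 and 1.73 (0.0601 and 0.0273). The differences were positive in each histology group with a fit, and the smaller groups of 5 to 8 dogs did not pass the test.

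Among the 7 dogs with an NMF3 CMT, ENSCAFG00000028626 was lower in the CMT in 3 and higher in 4, and ENSCAFG00000023647 lower in 2 and higher in 5. In CMT-538, with a complex carcinoma, the first gene stood at 1243 FPKM in normal tissue and 248 in the CMT, and the second at 2114 and 271. In CMT-231, with a carcinosarcoma, the levels went the other way, from 272 to 5582 FPKM and from 215 to 659 FPKM. In CMT-290, with an osteosarcoma, both tissues were low: the normal tissue had 9.28 and 0.784 FPKM and the CMT 15.5 and 10.5 FPKM. For that dog the low levels in the NMF3 CMT were thus not lower than in its own normal tissue. In all 4 dogs with an NMF4 CMT the first gene was lower in the CMT, with log2 differences from -4.82 to -0.04, while the second was lower in 2.

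The levels of normal tissue did not enter the contrast that chose the genes. The study did obtain its clusters from CMTs and normal tissues together, so the choice is not fully separate from normal tissue. The 7 normal tissues beside NMF3 CMTs had a median of 429 FPKM of ENSCAFG00000028626 (from 9.28 to 9131), and the 57 others 1175 FPKM. The log2 difference was -0.34 ± 1.13 (SE, 95% interval -2.60 to 1.92, adjusted p = 0.902, limma). ENSCAFG00000023647 had medians of 224 FPKM (from 0.784 to 2114) and 598 FPKM and differed by -0.80 ± 0.91 (SE, 95% interval -2.62 to 1.02, adjusted p = 0.677, limma). Neither difference exceeded the spread between normal tissues, and the intervals leave room for differences of more than 2 log2 units. All 7 normal tissues beside NMF3 CMTs were of 2017. Against the 33 other normal tissues of that year the differences were -0.12 and -0.52, and with rescaled libraries over all years -0.08 and -0.56. limma called 0% of 14609 identifiers, with 2612 at an unadjusted p under 0.05.

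The level of a gene in the normal tissue of a dog was then set against that in its CMT. This relation was computed after the values had been seen. Its CMT side pooled all clusters and held the 7 NMF3 CMTs, whose levels chose the genes. The p-values below are thus not independent of the choice. Over 64 dogs Pearson's r was 0.274 for ENSCAFG00000028626 (permutation p = 0.028, adjusted over 2 relations 0.028) and 0.405 for ENSCAFG00000023647 (permutation p = 0.00332, adjusted 0.00664), with Spearman's rho of 0.233 (permutation p = 0.0627, adjusted 0.0643) and 0.232 (permutation p = 0.0643, adjusted 0.0643). Without the 2 dogs farthest from the median normal level, r fell to 0.192 and 0.189, so the relation rested in part on those dogs. Within 2016, 2017 and 2018, r was 0.173, 0.329 and 0.0439 for the first gene and 0.543, 0.465 and -0.204 for the second.

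The remaining comparisons left out the NMF3 CMTs and used the 139 other CMTs. Of these, 127 were NMF1 or NMF2 CMTs, whose mean levels also entered the choice of the genes, although not their differences by histology, grade, stain or survival. Neither gene was called in any of them, and the plot of differences gives each with its interval.

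**Figure D3:**
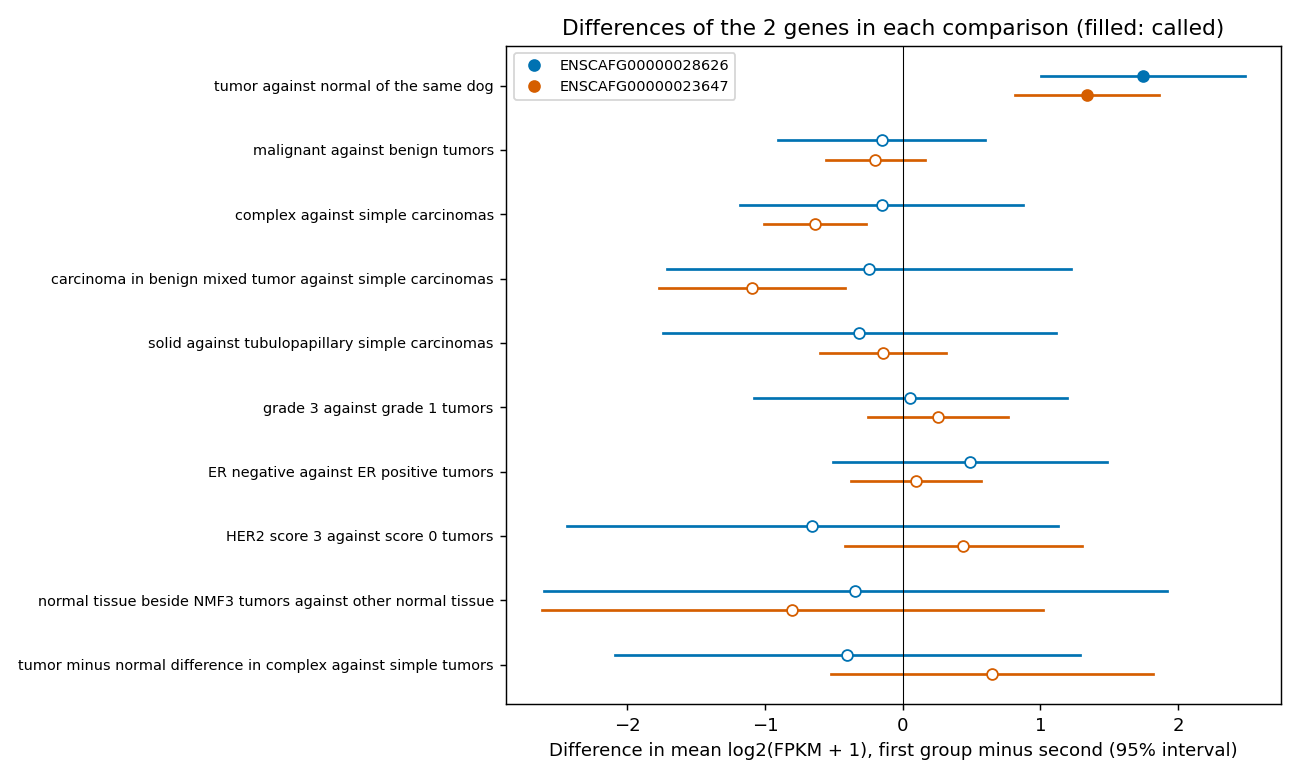
Difference in mean log2(FPKM + 1) between the groups named on the vertical axis, first minus second, for ENSCAFG00000028626 (blue) and ENSCAFG00000023647 (orange), with 95% intervals from limma; filled points are called. Only tumor against normal tissue of the same dog is filled, at 1.75 and 1.34.

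By histology, complex and simple carcinomas had ENSCAFG00000023647 at medians of 971 FPKM (from 191 to 2334, n = 29) and 1351 FPKM (from 272 to 4808, n = 55). The log2 difference of -0.64 ± 0.19 (SE, 95% interval -1.01 to -0.27) had an adjusted p of 0.0528 in limma and was under the size a call needs. With the histology of the study's annotation per tumor in place of the sample labels, it was -0.67 (adjusted p = 0.0154, limma), also under that size. Over the other settings the adjusted p lay on both sides of the threshold, up to 0.99998 within the 14 CMTs of 2016. By the labels, the difference was negative in each year, at -1.17 in 2016, -0.55 in 2017 and -0.91 in 2018. ENSCAFG00000028626 differed by -0.15 ± 0.52 (SE, 95% interval -1.18 to 0.88, adjusted p = 0.906, limma), with medians of 4583 and 6279 FPKM. In this comparison 0.298% of 14451 identifiers were called.

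In carcinomas in benign mixed tumor, ENSCAFG00000023647 had a median of 824 FPKM (from 31.3 to 3342, n = 13), and the log2 difference from simple carcinomas was -1.09 ± 0.34 (SE, 95% interval -1.77 to -0.42). It did not pass the test (adjusted p = 0.15, limma), beside 0.083% of 14456 identifiers called. Within years the difference was -1.11 in 2016, with 7 carcinomas in benign mixed tumor, and 0.12 in 2017, with 5, so its sign was not the same in both. The 2018 CMTs held a single carcinoma in benign mixed tumor. ENSCAFG00000028626 had a median of 4284 FPKM there (from 72.6 to 18269) and differed by -0.24 ± 0.74 (SE, 95% interval -1.71 to 1.22, adjusted p = 0.918, limma). Among the benign groups outside NMF3, the medians of ENSCAFG00000028626 and ENSCAFG00000023647 were 5630 and 1300 FPKM in 18 simple adenomas, 2524 and 1062 FPKM in 15 complex adenomas, and 3206 and 1449 FPKM in 8 benign mixed tumors. The 98 malignant CMTs, compared with 41 benign ones, differed by -0.15 ± 0.38 (SE, 95% interval -0.90 to 0.60) for the first gene and by -0.20 ± 0.18 (SE, 95% interval -0.56 to 0.16) for the second, with adjusted p of 0.916 and 0.697 in limma and 0.0965% of 14503 identifiers called.

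Solid simple carcinomas grow as sheets and tubulopapillary ones form tubules and papillae. The 17 solid CMTs had medians of 6736 and 1208 FPKM of ENSCAFG00000028626 and ENSCAFG00000023647, and the 36 tubulopapillary CMTs 6186 and 1363 FPKM. The log2 differences were -0.31 ± 0.71 (SE, 95% interval -1.74 to 1.11) and -0.14 ± 0.23 (SE, 95% interval -0.60 to 0.31), with adjusted p of 0.855 and 0.782 in limma, while 2.1% of 14443 identifiers were called.

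Grade was taken from the labels. In grade 1, 2 and 3 CMTs outside NMF3 (n = 58, 19 and 21) ENSCAFG00000028626 had medians of 6090, 4733 and 6736 FPKM and ENSCAFG00000023647 of 1213, 1013 and 1412 FPKM. Grade 3 differed from grade 1 by 0.06 ± 0.57 (SE, 95% interval -1.08 to 1.20, adjusted p = 0.965, limma) for the first gene and by 0.26 ± 0.26 (SE, 95% interval -0.25 to 0.77, adjusted p = 0.539, limma) for the second. In the same comparison 3.09% of 14412 identifiers were called. With NMF3 CMTs included the differences changed sign, to -0.66 and -0.35, and 7 of the 28 grade 3 CMTs were then NMF3. Without CMT-318, where the first gene was listed at 0, they were -0.26 and -0.23. With histology group as a covariate and without NMF3 CMTs, the second gene stood at -0.10.

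The estrogen receptor (ER) and HER2 were scored by the study on stained sections. The 19 ER negative CMTs outside NMF3 had medians of 7639 and 1319 FPKM of ENSCAFG00000028626 and ENSCAFG00000023647, and the 119 ER positive ones 4328 and 1238 FPKM. ER negative minus ER positive was 0.49 ± 0.50 (SE, 95% interval -0.51 to 1.49, adjusted p = 0.68, limma) and 0.10 ± 0.24 (SE, 95% interval -0.37 to 0.57, adjusted p = 0.886, limma), with 0.186% of 14506 identifiers called. With NMF3 CMTs included they were -0.14 and -0.42, and without CMT-318 among those 0.35 and -0.28, so the sign of the first gene turned on that library. Per point of a lower Allred score, a sum of staining intensity and proportion, the differences were 0.06 and 0.01 on the log2 scale. Across HER2 scores 0, 1, 2 and 3 (n = 12, 26, 67 and 33) the medians were 4548, 5630, 4284 and 3216 FPKM for the first gene and 1331, 1343, 1147 and 1281 FPKM for the second. Score 3 minus score 0 was -0.66 ± 0.89 (SE, 95% interval -2.44 to 1.13, adjusted p = 0.774, limma) and 0.44 ± 0.43 (SE, 95% interval -0.42 to 1.30, adjusted p = 0.67, limma), with 0.0415% of 14447 identifiers called. The medians of neither gene moved in a single direction over the scores. Per point of a higher HER2 score, the log2 differences were -0.34 ± 0.20 (SE, adjusted p = 0.76, limma) for the first gene and 0.09 ± 0.09 (SE, adjusted p = 0.924, limma) for the second.

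Complex and simple tumors, adenomas and carcinomas together, were compared in how far the CMT differed from normal tissue of the same dog. The 21 complex and 27 simple tumors differed by -0.40 ± 0.84 (SE, 95% interval -2.09 to 1.29, adjusted p = 0.911, limma) for ENSCAFG00000028626 and by 0.65 ± 0.58 (SE, 95% interval -0.52 to 1.82, adjusted p = 0.816, limma) for ENSCAFG00000023647. limma called 0% of 14677 identifiers, with 1044 at an unadjusted p under 0.05.

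Survival was related to expression in the 124 dogs with follow-up whose CMT was outside NMF3, of which 31 died. Per log2 unit, the hazard ratio was 1.14 (95% interval 0.93 to 1.40) for ENSCAFG00000028626 and 1.39 (95% interval 0.86 to 2.26) for ENSCAFG00000023647. Neither passed the score test of a Cox model fitted to each of 14511 identifiers in turn (adjusted p = 0.836 and 0.823 by Benjamini-Hochberg), where 0.0413% of identifiers had an adjusted p under 0.05. In the 89 dogs with a malignant CMT, of which 26 died, the hazard ratios were 1.16 (0.93 to 1.43) and 1.69 (1.01 to 2.84), with adjusted p of 0.653 and 0.454. Follow-up differed between the study's annotation, used here, and the sample labels. With the follow-up of the labels, 139 dogs had 21 deaths, and the hazard ratios were 1.13 (0.87 to 1.46) and 1.87 (1.01 to 3.46), with adjusted p of 0.746 and 0.419. The intervals of ENSCAFG00000023647 reach past a hazard ratio of 2.

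The 2 genes were set against each other within normal tissue, within clusters and over the within-dog differences, and all 5 Pearson correlations were positive. The within-dog differences subtract the levels of the same 64 normal tissues, so these 2 relations are not separate from each other. The adjustment counted all 5 relations, NMF3 included. In 64 normal tissues Pearson's r of the log2 levels was 0.74 and Spearman's rho 0.685 (permutation p = 1e-05 for each, the smallest the resamples can give, adjusted over 5 relations 2.5e-05). Among 14608 other identifiers there, this rho ranked ENSCAFG00000023647 161st for ENSCAFG00000028626, and ENSCAFG00000028626 322nd in the reverse order. Many identifiers thus followed each gene more closely in normal tissue than the other gene did. In 18 NMF3 CMTs r was 0.743 and rho 0.668, and r was 0.83 without CMT-318, given with no p because the NMF3 levels chose the genes. In 92 NMF1 CMTs r was 0.252 (permutation p = 0.0163, adjusted 0.0163) and rho 0.31 (permutation p = 0.00289, adjusted 0.00361). In 35 NMF2 CMTs r was 0.46 (permutation p = 0.0137, adjusted 0.0163) and rho 0.264 (permutation p = 0.127, adjusted 0.127). The within-dog differences from normal tissue of the 2 genes had r of 0.741 and rho of 0.706 over 64 dogs (permutation p = 1e-05 for each, adjusted 2.5e-05). The levels of NMF1 and NMF2 also entered the choice of the genes. The within-dog differences held the 7 dogs with an NMF3 CMT beside those with NMF1 and NMF2 CMTs, so their p-values are not independent of the choice. The difference between these correlations was not tested.

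Without the 2 libraries farthest from the median of ENSCAFG00000028626, r was 0.688 in normal tissue, 0.783 in NMF3, 0.325 in NMF1, 0.121 in NMF2 and 0.709 for the within-dog differences, so the relation in NMF2 rested on those libraries. Within 2016, 2017 and 2018, r in normal tissue was 0.607, 0.768 and 0.838, and for the within-dog differences 0.686, 0.715 and 0.875. Within 2016 and 2017 it was 0.688 and 0.76 in NMF3, 0.142 and 0.308 in NMF1, and 0.653 and 0.0667 in NMF2, and it was 0.374 in NMF1 within 2018. The other clusters had fewer than 6 CMTs in 2018. Without the 2 libraries farthest from the median within each year, r in normal tissue was 0.066, 0.685 and 0.84. With all libraries rho there was 0.033, 0.742 and 0.873, so the relation of 2016 rested on 2 libraries. With the 2 farthest left out, r was 0.643, 0.619 and 0.72 for the within-dog differences. It was 0.166 and 0.379 in NMF3, 0.45 and 0.18 in NMF1, and -0.185 and 0.346 in NMF2 within 2016 and 2017. In NMF1 within 2018 it was 0.352.

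**Figure D4:**
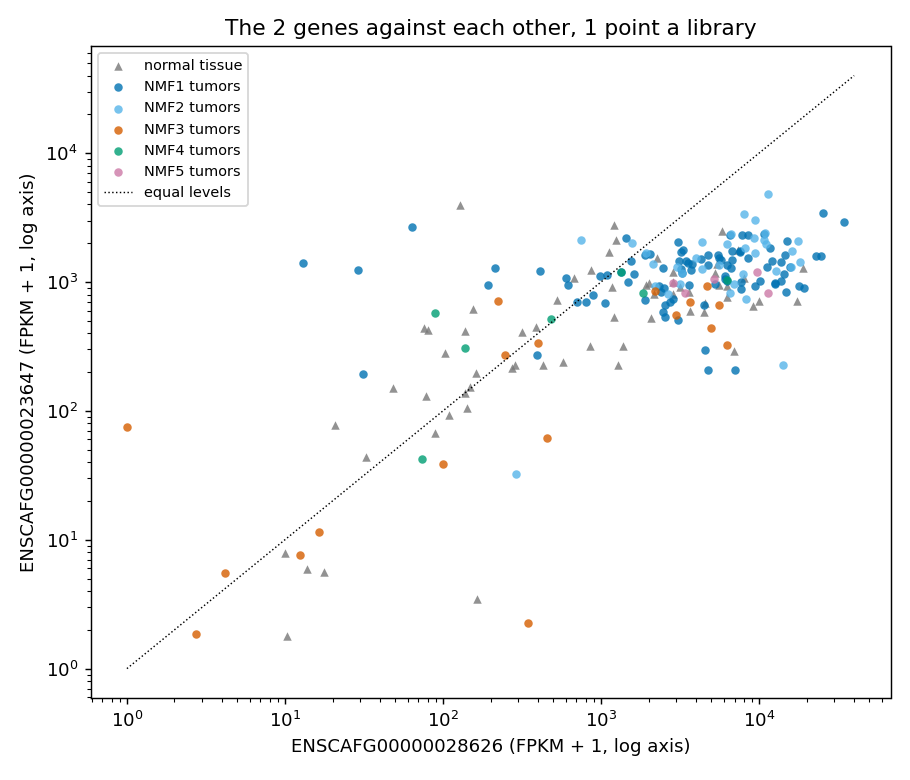
ENSCAFG00000023647 against ENSCAFG00000028626, both as FPKM + 1 on log axes, 1 point a library, with triangles for normal tissue, circles for CMTs colored by cluster and a dotted line of equal levels. Most CMTs lie below the line at the upper right, and NMF3 CMTs and normal tissues also lie at the lower left, with r of 0.743 and 0.74.

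The first gene was usually the higher one. Its level exceeded that of ENSCAFG00000023647 in 136 CMTs and in 43 of 64 normal tissues, and the median ratio of the 2 levels (each FPKM + 1) was 3.64 in CMTs and 2.14 in normal tissue. By cluster the median ratio was 4.86 in NMF5, 4.10 in NMF2, 3.76 in NMF1, 2.58 in NMF3 and 1.13 in NMF4. The log2 ratio ran from -6.23 to 7.25 in NMF3, the ends being CMT-318 and CMT-129, and from -6.76 to 5.08 in NMF1.

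The identifiers most and least like each gene were named by Spearman's rho of FPKM over the CMTs of all clusters, among 14583 other identifiers, with no test. The highest for ENSCAFG00000028626 was ENSCAFG00000016428 (rho 0.708), with medians of 25.6 FPKM in NMF1 and NMF2 CMTs and 10.8 FPKM in NMF3 CMTs. In 64 normal tissues its rho was 0.405, the 1181st highest. The lowest for ENSCAFG00000028626 was ENSCAFG00000006638 (rho -0.57 in CMTs and -0.53 in normal tissues), with medians of 7.32 FPKM in NMF1 and NMF2 and 22.5 FPKM in NMF3. The highest for ENSCAFG00000023647 was ENSCAFG00000007154 (rho 0.822 in CMTs and 0.926 in normal tissues, where it ranked 3rd), with medians of 449 FPKM in NMF1 and NMF2 and 70.7 FPKM in NMF3. The lowest for ENSCAFG00000023647 was ENSCAFG00000006424 (rho -0.67 in CMTs and -0.62 in normal tissues), with medians of 0.609 and 5.41 FPKM. The 2 genes had a rho of 0.467 with each other over the CMTs of all clusters, which placed ENSCAFG00000023647 116th among identifiers like ENSCAFG00000028626, and ENSCAFG00000028626 254th in the reverse order. These coefficients pool the clusters and describe the order of CMTs only.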

How the data were processed

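Reads were aligned by the authors to CanFam3.1 (TopHat2 2.0.9), who deposited FPKM values from Cufflinks (2.1.1), 1 per gene identifier and library, with no further scaling between libraries stated. Tumor or normal tissue, diagnosis, grade, ER and HER2 scores and surgery year came from the sample labels. NMF cluster, class, mapped reads and, for survival, follow-up came from the annotation that the study gives per tumor. Malignancy differed between the 2 sources in 9 CMTs. CMT-351 has no cluster there and entered only 1 alternative for malignant against benign CMTs. The members, lists and tests were chosen with earlier results of these data known. Named identifiers, besides the 2 genes, were those with the highest and lowest Spearman's rho with each over the CMTs. Single CMTs were named where they were NMF3 or rare histologies, lay below every normal tissue or were listed at 0, and others after their values were seen.

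Differences in log2(FPKM + 1) were fitted by limma (3.58.1, R 4.3.3), with trend and two-sided, over all identifiers that averaged 0.5 FPKM or more in the compared libraries, with Benjamini-Hochberg adjustment over all of them. A fold change on this scale understates the change of low genes. Tumor and normal tissue were paired by dog, as the labels give it. Their deviations from the group means correlated with a median of 0.207 over 64 pairs, above 0.1 in 45. Cox models used lifelines 0.30.3, and permutation tests 100000 resamples with scipy 1.17.1. The tests were tested on simulated data. No sequencing batch was given in the sources used here, so surgery year and mapping rate served as covariates. Of 43286 genes in the RefSeq gene table, 0 carry an Ensembl identifier, so marker lists were not used. No pair of libraries held identical values, and dogs are the replicates. Alternatives were another pseudocount (0.1), no filter, another scaling, other samples and other covariates. Comparison columns of the study were not used.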

Additional observations from a re-analysis of the deposited data

Results flagged for a closer look

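In groups of 4 to 10 libraries, 4 of 12 checks found a library whose gap to its nearest neighbour, on the log2 scale, was larger than Dixon's 95% limit for the group, a limit that chance passes in about 1 group in 20. The benign mixed tumor of CMT-695 accounted for 2 of them, with 1.74 FPKM of ENSCAFG00000028626 against 1089 in the next of 10 benign mixed tumors, and 0.860 FPKM of ENSCAFG00000023647 against 436. CMT-695 is an NMF3 CMT, and its low levels entered the choice of the genes. These 2 checks come from 1 library, and the rate of chance cannot be applied to them. The NMF4 CMT of CMT-756 had 41.6 FPKM of ENSCAFG00000023647, and the next of 7 NMF4 CMTs had 305. The normal tissue of CMT-290 had 0.784 FPKM of ENSCAFG00000023647, and the next of the 7 normal tissues beside NMF3 CMTs had 197.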

How the results depend on the processing

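Values below give ENSCAFG00000028626 before ENSCAFG00000023647. In tumor against normal tissue both genes stayed called with another pseudocount, without the filter on low values, with rescaled libraries, without NMF3 dogs and without the replicate block (unpaired, 1.75 and 1.34, adjusted p = 0.000483 and 0.000321). All of these fits keep the NMF1 and NMF2 CMTs, whose levels entered the choice of the genes, so none is independent of it. Alternatives chosen after seeing the data lost the call: within 2016 (1.15 and 0.67) and 2018 (2.11 and 1.55), in carcinomas in benign mixed tumor (1.77 and 1.10), complex adenomas (0.68 and 1.06) and simple adenomas (2.70 and 1.20), and for the first gene in complex carcinomas (1.70). These fits hold fewer dogs.

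Other differences, none called, changed sign. For complex against simple carcinomas the first gene stood at 1.32 within 2016 and 0.0095 within 2018. For carcinomas in benign mixed tumor it stood at 0.011 with NMF3 CMTs included, 0.12 within 2016 and 0.46 within 2017, and the second gene at 0.12 within 2017. Including NMF3 CMTs gave -0.66 and -0.35 for grade 3 (-0.26 and -0.23 without the library listed at 0), -0.14 and -0.42 for ER negative (0.35 and -0.28 without that library), and hazard ratios of 0.99 and 0.952. The second gene reached 0.0046 in solid carcinomas with NMF3 and without that library, and -0.10 for grade 3 with histology as a covariate. Leaving out the library listed at 0 gave no value in comparisons that do not hold it.

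Correlations lost the threshold within 2016 (normal tissue 0.607, NMF1 0.142, NMF2 0.653, within-dog differences 0.686; NMF3, described with no test, 0.688), in NMF2 within 2017 (0.0667) and in NMF1 within 2018 (0.374). Another scaling, pseudocount or the library listed at 0 moved no correlation across the threshold.

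Counts of called identifiers moved by over 1.5 times with a pseudocount of 0.1, from 752 to 1404 for tumor against normal, 14 to 37 for malignant, 43 to 106 for complex, 12 to 5 for mixed, 303 to 563 for solid, 446 to 904 for grade, 27 to 76 for ER and 0 to 3 for normal tissue beside NMF3 CMTs. With surgery year as a covariate they were 30 for malignant, 2 for mixed, 1 instead of 6 for HER2 and 93 for normal tissue beside NMF3 CMTs. Mapping rate gave 15 for HER2, and rescaled libraries 7 for mixed. Outside tumor against normal tissue, neither gene was called in these fits. The number of reads per gene is unknown, so no counting error can be given for low FPKM values.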

Other observations

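The complex adenoma of CMT-351, which has no cluster in the sources used here, had 7393 FPKM of ENSCAFG00000028626 and 2283 FPKM of ENSCAFG00000023647. Among the 5 normal tissues with the lowest levels of ENSCAFG00000023647, which were those of CMT-290, CMT-278, CMT-201, CMT-217 and CMT-072, the levels were 0.784, 2.44, 4.62, 4.88 and 6.93 FPKM. ENSCAFG00000028626 stood at 9.28, 163, 16.7, 12.8 and 8.97 FPKM in the same 5. The 18 dogs with an NMF3 CMT were 8 to 17 years old, with a median of 14, and the dogs with another CMT had a median age of 12.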
